A study of Mus musculus with 59 samples.

Results

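Gene expression was compared between the livers of 5 Muta™Mouse that received a medium dose of benzo(b)fluoranthene (BbF), a polycyclic aromatic hydrocarbon, and the livers of 5 that received vehicle alone. The 10 arrays are all those labelled D2_liver or D0_liver, of 59 in the series (20 from liver, with 5 each at vehicle, low, medium and high dose). All mice were males of the same transgenic strain, which carries a reporter gene for mutation assays, were aged about 16 weeks and were gavaged daily for 28 days. Vehicle mice (numbered 1 to 5 in the labels) received olive oil, and medium-dose mice (11 to 15) received 50 mg/kg-bw/day of BbF in olive oil. Low-dose and high-dose mice, which enter the fit and a few comparisons, received 25 and 100 mg/kg-bw/day. Liver was taken 72 hours after the last dose, and 1 random section of it gave the RNA for 1 array per mouse. The series' labels disagree on the compound: sample titles and dosing text say BbF, but 1 exposure field and the series design say benz(a)anthracene. BbF is used here because the dose levels match those of the BbF experiment.

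Each value is a log2(Cy5/Cy3) ratio, in which Cy5 is the liver RNA and Cy3 a reference RNA pooled from 11 mouse cell lines, so 1 unit is a 2-fold difference. The liver arrays lay on 3 slides, and every slide held both groups. Slide 1 carried vehicle mice 3 and 4 and medium-dose mice 13 and 14. Slide 2 carried vehicle mice 1 and 2 and medium-dose mouse 12. Slide 3 carried vehicle mouse 5 and medium-dose mice 11 and 15, and its Cy5 signal was weak: at most 12.5% of probes were well above background in Cy5 on these 3 arrays, against 37.1 to 45.5% on the other 7. The SD of the log2 ratio across probes was 0.573 to 0.622 on slide 3 and 1.05 to 1.08 on slides 1 and 2, so differences on slide 3 are compressed. The slide was a block in the fit, which removes a shift between slides but not this compression. Fitted changes thus include the smaller differences of slide 3, and values are given by slide. The tissue label was checked against hepatocyte genes, and all 10 hepatocyte markers, among them albumin and transthyretin, were well above background on all 10 arrays.

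Polycyclic aromatic hydrocarbons bind the aryl hydrocarbon receptor (AhR), a transcription factor that drives the cytochromes P450 of the Cyp1 family, and these enzymes can turn such a compound into metabolites that bind DNA. DNA damage activates p53, which induces cell cycle inhibitors and repair and death genes. Hepatocytes also run a circadian clock, in which the activators Arntl and Clock drive genes through E-boxes, and output factors such as Dbp and Tef pass the rhythm on to metabolic genes.

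Few genes passed the thresholds at the medium dose. Of 37163 genes and transcripts tested, 56 were differentially expressed genes (DEGs), called at an FDR-adjusted p of at most 0.05 by limma together with at least a 1.5-fold difference, which is 0.151% of all. Of these, 44 were upregulated (0.118%) and 12 were downregulated (0.0323%), and 50 had a gene symbol. Whether called or not, 18845 of the 37163 had a change above 0 and 18318 one below 0, by the brightest probe. The changes ran from 1.503-fold to 5.18-fold up and from 1.54-fold to 1.98-fold down, leaving out 1 transcript on chr1 whose probe was well above background on 2 vehicle arrays and 1 medium-dose array. The median change of the 44 upregulated DEGs was 0.91 on slide 1, 0.99 on slide 2 and 0.30 on slide 3, and that of the 12 downregulated DEGs was -0.89, -1.01 and -0.37. In 36 of the 44 upregulated DEGs all 5 medium-dose mice lay above the vehicle mice of their own slide (3.69% of all genes did so), and in all 12 downregulated DEGs all 5 lay below them (2.94% of all genes), which is a description, since the same values made the calls. The bulk RNA does not show whether a transcript changed per cell or the share of a cell type changed, and these cannot be told apart here.

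The number of DEGs depended on how the slides were treated. Without a slide term the test called 0 DEGs (2523 probes at an unadjusted p under 0.05), with the slide as a random block it called 1, and without slide 3 it called 186, 50 of them among the 56. With 1 mouse left out the count ran from 9 (without mouse 12) to 187 (without mouse 5). The direction of all 56 changes was the same in each of the 21 alternatives examined, apart from 1 transcript that a stricter background filter removed.

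Genes of the circadian clock were among the most changed. The hour of day at which each liver was taken is not known here, and its part was not tested. The output factors Dbp and Tef were upregulated, by 5.18-fold and 2.01-fold. The log2 ratio of Dbp was -0.75, -1.52, -2.10, -2.98 and -0.39 in vehicle mice 3, 4, 1, 2 and 5, and 1.48, 0.69, 1.79, 0.46 and 0.16 in medium-dose mice 13, 14, 12, 11 and 15. Every medium-dose liver was above every vehicle liver, and the fitted log2 change was 2.37 (SE 0.50, limma adjusted p = 0.0431). The second probe of Dbp had a change of 2.12 (limma adjusted p = 0.0639). Tef was at -0.04, -0.37, -0.47, -0.71 and 0.25 in the vehicle mice and at 0.92, 0.66, 0.92, 0.85 and 0.62 in the medium-dose mice, in the same order of mice. The groups did not overlap on any slide, and the log2 change of Tef was 1.01 (SE 0.20, limma adjusted p = 0.0350). Either call is open to single mice: with 1 mouse at a time left out, both genes passed in 2 of 10 fits, with adjusted p-values of up to 0.250 for Dbp and 0.202 for Tef.

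Dbp and Tef belong to a list of 14 clock-controlled and repressor genes. Of the 14, these DEGs included, 10 were higher at the medium dose (18845 of 37163 over all genes). Of the 10, 9 had an unadjusted p under 0.05 (6.08% of all genes), and the median log2 change of the 14 was 0.49, beside 0.0019 over all genes. Cry2, a repressor of the clock, passed the adjusted p but not the fold threshold (log2 change 0.51, SE 0.10, limma adjusted p = 0.0243). Cry1 and Ciart were not well above background on any of the 10 arrays. All 6 genes of the positive arm and its D-box repressor were lower without being DEGs. Nfil3, which competes with Dbp for D-boxes, had a log2 change of -0.85 (limma adjusted p = 0.127), Arntl of -0.77 (adjusted p = 0.188) and Clock of -0.14 (adjusted p = 0.706). In Arntl the vehicle mice were at 0.51, 0.92, 1.49, 1.58 and 0.16 and the medium-dose mice at -0.17, 0.57, -0.29, 0.07 and 0.03, so the groups overlapped when the slides were pooled, and 4 of 5 medium-dose mice lay below the vehicle mice of their slide.

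The promoters of Dbp and Tef are shown because this pair led the clock genes. The stretches are the 250 bases before the listed start in RefSeq (GRCm38.p6). Capitals mark the E-box CACGTG, through which clock activators bind, and the core of the AhR-binding xenobiotic response element (XRE), GCGTG or its complement CACGC. Dbp has 1 listed start (chr7:45704997-45705246, plus strand) and Tef has 2 (chr15:81802423-81802672 and chr15:81811164-81811413, plus strand).
Dbp: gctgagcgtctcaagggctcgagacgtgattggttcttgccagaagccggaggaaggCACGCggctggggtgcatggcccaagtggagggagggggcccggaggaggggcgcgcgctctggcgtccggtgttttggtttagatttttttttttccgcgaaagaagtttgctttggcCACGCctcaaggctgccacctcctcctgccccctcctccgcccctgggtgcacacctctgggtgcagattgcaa
Tef, first start: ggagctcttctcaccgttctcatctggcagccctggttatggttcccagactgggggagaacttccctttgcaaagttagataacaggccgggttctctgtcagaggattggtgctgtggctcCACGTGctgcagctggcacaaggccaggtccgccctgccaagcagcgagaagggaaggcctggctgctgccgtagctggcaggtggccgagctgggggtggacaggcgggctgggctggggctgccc
Tef, second start: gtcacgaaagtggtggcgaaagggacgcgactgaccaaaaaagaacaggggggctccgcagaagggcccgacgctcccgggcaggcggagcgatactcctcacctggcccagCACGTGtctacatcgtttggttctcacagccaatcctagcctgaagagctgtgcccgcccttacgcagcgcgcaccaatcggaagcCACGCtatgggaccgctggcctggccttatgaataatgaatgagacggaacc

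Both Tef stretches held 1 E-box, and the Dbp stretch held none. An E-box was present in 5 of the 12 clock-controlled and repressor genes that have a promoter entry, in 4 of the 39 DEGs that have one (10.3%) and in 6.9% of all 27025 genes with one. The XRE core, a short motif, was present in all 12 of these clock genes, in 16 of the 39 DEGs (41.0%) and in 30.9% of all genes. Motifs were sought on both strands in at least 1 of a gene's listed starts, and a match describes letters, not binding.

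The upregulated DEGs Egr1, Nab2, Csrnp1 and Erf are described together, a grouping made after their values had been seen, since only Egr1 and Nab2 belong to the list of immediate early genes. Egr1 is an immediate early transcription factor, Nab2 is a corepressor that binds EGR proteins and limits them, and Csrnp1 is a nuclear protein of the early response. Egr1 was at -3.94, -2.80, -4.84, -3.72 and -1.37 in vehicle mice 3, 4, 1, 2 and 5 and at -1.01, -1.20, -1.02, -0.81 and -1.67 in medium-dose mice 13, 14, 12, 11 and 15. On slides 1 and 2 the groups were separated by more than 1 unit, whereas on slide 3 the single vehicle liver lay between the 2 medium-dose livers, and the log2 change was 1.94 (SE 0.35, limma adjusted p = 0.0201). Nab2 was at -1.502, -1.22, -1.42, -1.33 and -0.56 in the vehicle mice and at -0.27, -0.21, -0.18, -0.09 and -0.21 in the medium-dose mice. No medium-dose liver overlapped a vehicle liver, the log2 change was 0.94 (SE 0.12, limma adjusted p = 0.000832), and the call held in 20 of 21 alternatives, more than for any other DEG. Its second probe was not well above background on any of the 10 arrays. Csrnp1 had a log2 change of 0.79 and Erf, an ETS-family repressor downstream of growth factor signalling, one of 0.65 (limma adjusted p = 0.0178 and 0.0243).

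Egr1 and Nab2 were the only DEGs among the 14 immediate early genes listed (0.118% of all genes were upregulated). Of the 14, these DEGs included, 3 were higher at an unadjusted p under 0.05 (6.08% of all genes). The median log2 change of the 14 was 0.13, beside 0.0019 over all genes. Fos was not well above background on any of the 10 arrays, and Myc, with a log2 change of 0.56 (limma adjusted p = 0.596), had overlapping groups on slide 2. Id2, an inhibitor of basic helix-loop-helix factors, was upregulated besides, by 1.71-fold (limma adjusted p = 0.0204).

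The promoter of Nab2 (RefSeq, GRCm38.p6, chr10:127666704-127666953, minus strand, 250 bases before the start) is shown because Nab2 was the most stable of the calls. Capitals mark its 1 XRE core.
Nab2: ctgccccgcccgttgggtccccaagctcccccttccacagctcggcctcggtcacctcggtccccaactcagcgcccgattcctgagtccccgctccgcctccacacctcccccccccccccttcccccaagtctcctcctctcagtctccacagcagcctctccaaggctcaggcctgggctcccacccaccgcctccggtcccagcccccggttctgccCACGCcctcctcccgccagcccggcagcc
An EGR site (GCGTGGGCG or GCGGGGGCG) was not found in it. Such a site was found in 3 of the 39 DEGs with a promoter entry (7.7%) and in 3.5% of all genes.

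Of 26 p53 targets, 2 were upregulated (0.118% of all genes) and none downregulated (0.0323% of all genes). The 2 were Cdkn1a, which encodes the cell cycle inhibitor p21, and Phlda3, which encodes a repressor of Akt. Cdkn1a was at -3.21, -2.96, -2.73, -2.64 and -0.77 in vehicle mice 3, 4, 1, 2 and 5 and at -1.92, -1.55, -1.94, -0.48 and -0.37 in medium-dose mice 13, 14, 12, 11 and 15. Each medium-dose liver lay above the vehicle livers of its slide, and the log2 change was 0.94 (SE 0.16, limma adjusted p = 0.0157). A second Cdkn1a probe was well above background on 0 vehicle arrays and 1 medium-dose array and did not pass. Phlda3 was at -2.80, -2.66, -2.81, -2.63 and -1.56 in the vehicle mice and at -2.10, -1.97, -2.11, -1.06 and -0.94 in the medium-dose mice. Its groups were separate on each slide too, with a log2 change of 0.64 (SE 0.13, limma adjusted p = 0.0356), but the call held in only 1 of the 10 fits with 1 mouse left out.

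Over all 26 p53 targets, Cdkn1a and Phlda3 included, 22 were higher (18845 of 37163 over all genes). Of the 22, 11 had an unadjusted p under 0.05 (6.08% of all genes), and the median log2 change of the 26 was 0.20, beside 0.0019 over all genes. Ccng1 (cyclin G1) had a log2 change of 0.72 (limma adjusted p = 0.0973) and Aen, an apoptosis-enhancing nuclease, of 0.57 (adjusted p = 0.132).

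One stretch of the Cdkn1a promoter (first of 2 listed starts, RefSeq, GRCm38.p6, chr17:29090729-29090978, plus strand, 250 bases) is shown because it holds matches to the p53 half-site consensus, which are in capitals.
Cdkn1a: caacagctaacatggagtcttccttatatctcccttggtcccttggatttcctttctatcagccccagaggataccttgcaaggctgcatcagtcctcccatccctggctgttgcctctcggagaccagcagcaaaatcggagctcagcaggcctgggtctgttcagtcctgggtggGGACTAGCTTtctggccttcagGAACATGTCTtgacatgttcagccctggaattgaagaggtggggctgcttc
There were 2 such matches here and none in the single Phlda3 promoter entry. At least 1 match was found in 8 of the 18 p53 targets that have a promoter entry, in 3 of the 39 DEGs (7.7%) and in 8.2% of all genes.

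**Figure D1:**
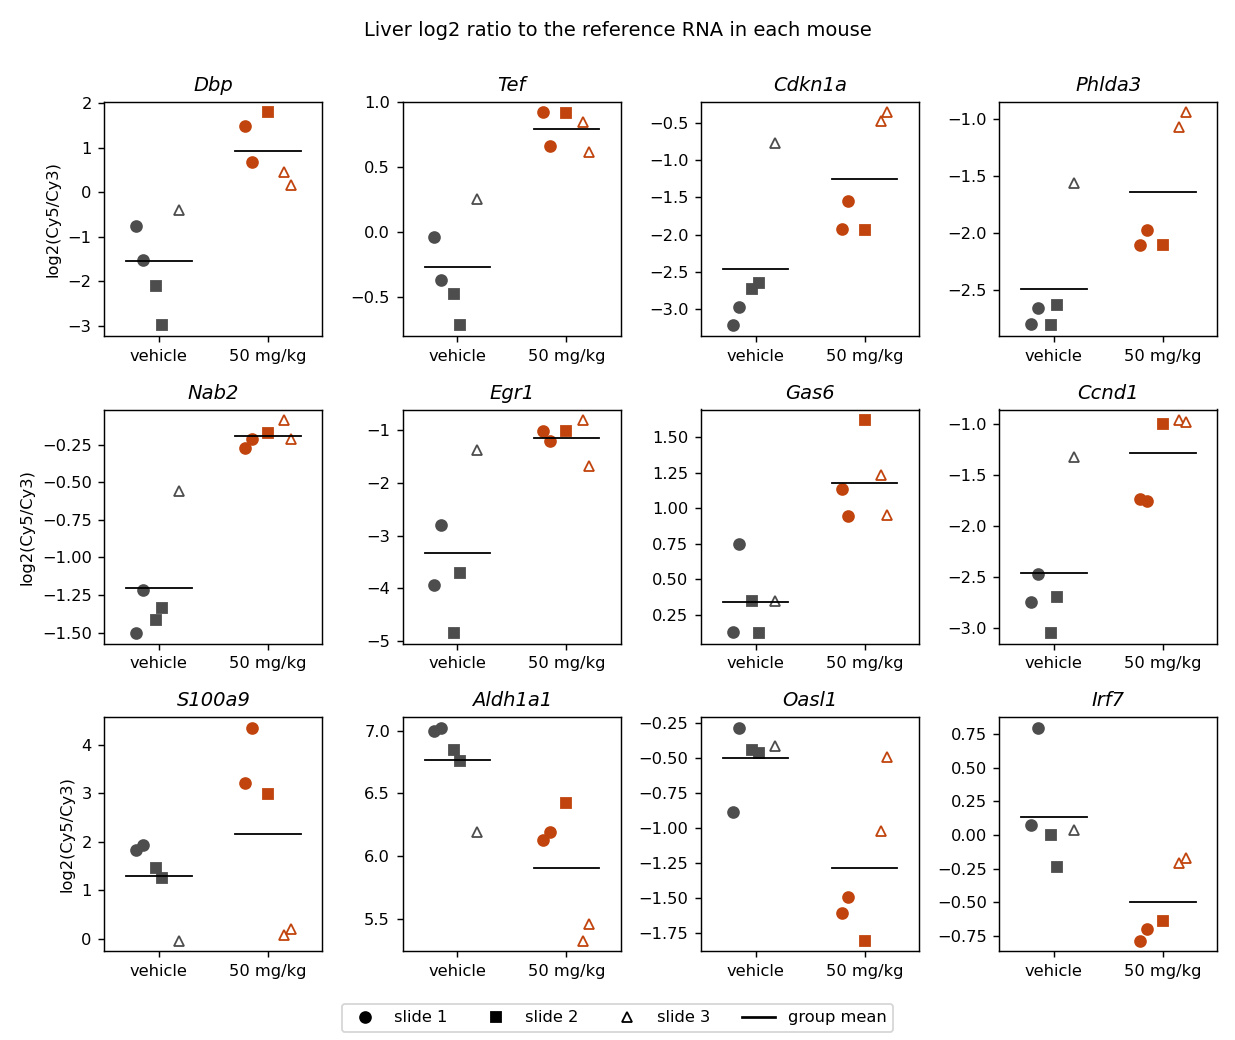
Log2(Cy5/Cy3) of 12 DEGs in the liver of each of 5 vehicle mice (grey) and 5 mice at 50 mg/kg-bw/day (orange). Symbols give the slide (circle 1, square 2, open triangle 3) and lines the group means. Dbp, Tef and Nab2 do not overlap between groups, whereas for S100a9 the 2 medium-dose livers of slide 3 lie below 4 of the vehicle livers and above the vehicle liver of their own slide.

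Ccnd1 rose in all medium-dose livers, whereas some mitosis genes were high in 1 of them. Ccnd1 (cyclin D1), which drives entry into the cell cycle, was the only DEG among 16 DNA replication genes (0.118% of all genes were upregulated). It was at -2.74, -2.47, -3.05, -2.70 and -1.32 in vehicle mice 3, 4, 1, 2 and 5 and at -1.74, -1.75, -0.999, -0.96 and -0.98 in medium-dose mice 13, 14, 12, 11 and 15. All medium-dose livers were above the vehicle livers of their slide, and the log2 change was 1.03 (SE 0.17, limma adjusted p = 0.0133). None of the 15 mitosis genes was a DEG. Their median difference was -0.03 on slide 1, 0.86 on slide 2 and 0.16 on slide 3, and mouse 12 is the only medium-dose liver of slide 2. Mki67, a marker of cycling cells, was at -3.87 in mouse 12 against -5.22 and -4.71 in medium-dose mice 13 and 14 and between -5.37 and -4.67 in the vehicle mice of slides 1 and 2. In Birc5 (log2 change 0.87, limma adjusted p = 0.436), Ccna2 (0.61, adjusted p = 0.532) and the replication gene Rrm2 (0.59, adjusted p = 0.448) mouse 12 was likewise the highest of the 7 livers of slides 1 and 2. Other mitosis genes were not high in it: Bub1 (-2.90) and Bub1b (-2.77) lay between vehicle mice 1 and 2 of the same slide. Pcna and Cdt1 had log2 changes of 0.32 and 0.30 (limma adjusted p = 0.382 and 0.333).

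No AhR target was a DEG. Of 10, 8 were lower and 2 higher at the medium dose (18318 and 18845 of 37163 over all genes), and the median log2 change was -0.06. Cyp1a1, the enzyme most used to read out AhR activity, was well above background on 2 vehicle arrays and on 0 medium-dose arrays, so no fold is given. Its log2 ratio was 0.72, 0.09, -0.01, 2.84 and -0.14 in vehicle mice 3, 4, 1, 2 and 5, with mouse 2 far above the others, and between -0.13 and 0.21 in the medium-dose mice. Cyp1a2 was well above background on all 10 arrays and had a log2 change of -0.05 (SE 0.16, limma adjusted p = 0.965). Ahrr was not well above background on any of them. Tiparp, Ugt1a6a and Cyp2s1 had log2 changes of 0.10, -0.12 and -0.16, with limma adjusted p-values from 0.790 to 0.807.

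Among 15 targets of NRF2, the regulator of the oxidative stress response, none was a DEG, and the median log2 change was -0.01. Osgin1, an oxidative stress-induced growth inhibitor, came nearest: all 5 medium-dose livers lay above the vehicle livers of their slide, with a log2 change of 0.83 (SE 0.20, limma adjusted p = 0.0759). G6pdx, the first enzyme of the pentose phosphate pathway, had a log2 change of 0.50 (limma adjusted p = 0.246), Gstm1 of -0.25 (adjusted p = 0.653) and Ephx1 of 0.16 (adjusted p = 0.774).

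A set of the upregulated DEGs are known from blood vessel endothelium. This grouping was made after the values had been seen, and it is no test of a cell type. It holds Mmrn2, an extracellular matrix glycoprotein of vessels, Tie1, an endothelial receptor tyrosine kinase, the endothelial transcription factor Sox18, Cd93, Ccm2l, the laminin chain gene Lama4 and Adgrf5. Mmrn2 was at 3.56, 4.02, 3.65, 3.81 and 0.52 in vehicle mice 3, 4, 1, 2 and 5 and at 5.17, 5.08, 5.30, 1.04 and 1.04 in medium-dose mice 13, 14, 12, 11 and 15. The groups were at least 1 unit apart on slides 1 and 2 and differed by 0.52 on slide 3, and the log2 change was 1.18 (SE 0.12, limma adjusted p = 6.18e-05). The other 6 had log2 changes from 0.60 to 0.73, and Sox18 changed sign on slide 3. Ccm2l was called by 1 probe, and its other probes had changes of 0.18 and 0.30 (limma adjusted p = 0.628 and 0.322).

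Of 8 markers of sinusoidal endothelium, the fenestrated lining of the liver's blood channels, 7 were higher and 1 lower, none as a DEG, with a median log2 change of 0.30. All 8 were well above background on at least 3 of 5 arrays of a group. The mean log2 ratio of the list ranged from 0.72 to 2.35 in the vehicle livers and from 0.58 to 2.89 in the medium-dose livers, and its median difference was 0.46 on slide 1, 0.46 on slide 2 and 0.02 on slide 3. Lyve1 had a log2 change of 1.14 (limma adjusted p = 0.0621), Stab1 of 0.38 (adjusted p = 0.112), Stab2 of 0.36 (adjusted p = 0.115) and Cdh5 of 0.42 (adjusted p = 0.197), whereas Kdr had one of -0.35 (adjusted p = 0.441). The part of endothelial cell content in the DEGs above was not tested.

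Other upregulated receptors and ligands span several cell types. Gas6, the ligand of the TAM receptor kinases that mediate uptake of dying cells, was at 0.13, 0.75, 0.34, 0.12 and 0.34 in vehicle mice 3, 4, 1, 2 and 5 and at 1.14, 0.94, 1.62, 1.23 and 0.95 in medium-dose mice 13, 14, 12, 11 and 15. All medium-dose livers were above all vehicle livers, and the log2 change was 0.85 (SE 0.14, limma adjusted p = 0.00770). Of its receptors, Mertk had a log2 change of 0.32 (limma adjusted p = 0.440), and Pros1, the other ligand, had one of 0.25 (adjusted p = 0.529). The semaphorin receptor Plxnb1 was upregulated 2.03-fold (limma adjusted p = 0.0235), the stem cell factor receptor Kit 1.60-fold (adjusted p = 0.0364), the chemokine scavenger Ackr2 1.60-fold (adjusted p = 0.0422) and the chemokine Cxcl16 1.52-fold (adjusted p = 0.0263). Kit, Ackr2 and Cxcl16 were well above background on 4 vehicle and 3 medium-dose arrays.

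S100a9 and Socs3, genes of inflammation, were upregulated. S100a9 encodes a subunit of calprotectin, a neutrophil protein, and was at 1.84, 1.93, 1.45, 1.26 and -0.04 in vehicle mice 3, 4, 1, 2 and 5 and at 3.21, 4.35, 2.99, 0.08 and 0.20 in medium-dose mice 13, 14, 12, 11 and 15. Each medium-dose liver was above the vehicle livers of its slide, but by little on slide 3, and the log2 change was 1.36 (SE 0.26, limma adjusted p = 0.0255). S100a8, the other subunit, had a log2 change of 0.18 (limma adjusted p = 0.735) and was well above background on 2 arrays of each group. Of 4 neutrophil markers on the array S100a9 was the only DEG, Camp had a log2 change of 0.31 (limma adjusted p = 0.218) and Ngp was well above background on 1 vehicle array and on no medium-dose array. The mean log2 ratio of the 4, S100a9 included, ranged from -0.13 to 0.29 in vehicle livers and from 0.02 to 1.09 in medium-dose livers. This mean counts S100a9 again and is no separate measure of neutrophils, and the part of neutrophil content was not tested. Socs3, a feedback inhibitor of cytokine signalling, was the only DEG among 24 acute phase genes (0.118% of all genes were upregulated). It had a log2 change of 0.79 (SE 0.16, limma adjusted p = 0.0405). Saa4 and Steap4 had log2 changes of 0.38 and 0.31 (limma adjusted p = 0.281 and 0.333), and the median of the 24 was 0.09.

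Several upregulated DEGs are enzymes, transporters or regulators. Slc26a10, of an anion transporter family, was at 0.93, 0.32, 0.36, 0.40 and -0.13 in vehicle mice 3, 4, 1, 2 and 5 and at 1.91, 1.75, 1.73, 0.22 and 0.11 in medium-dose mice 13, 14, 12, 11 and 15 (log2 change 1.03, SE 0.15, limma adjusted p = 0.00544). On slides 1 and 2 every treated liver was above every vehicle liver. The beta-adrenergic receptor gene Adrb3 was upregulated 1.88-fold by 1 probe, and its other probe was a DEG too (log2 change 0.92). The liver-enriched forkhead factor Foxa3 was upregulated 1.85-fold and Ltc4s, which makes leukotriene C4, 1.78-fold (Adrb3, Foxa3 and Ltc4s: limma adjusted p = 0.00770, 0.0201 and 0.00659). Ushbp1 was upregulated 1.79-fold by the called probe (limma adjusted p = 0.00720), and its second probe had a log2 change of 0.40 (adjusted p = 0.207). Hsd17b6, a steroid and retinol dehydrogenase, rose 1.76-fold and Tmem25 1.67-fold (limma adjusted p = 0.0190 and 0.00544). Slc26a10, Adrb3, Ltc4s, Ushbp1 and Tmem25 were called in each of the 10 fits with 1 mouse left out, as were Mmrn2 and Nab2, and no other DEG was.

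The other upregulated DEGs were as follows. The lysosomal regulator Flcn, the DNA methyltransferase Dnmt3a, the serine protease Prss8, Amot, Rtkn, Gpr146, Rell1 and Hps4 had log2 changes from 0.59 to 0.77. Adgrf1 and Mast1 had log2 changes of 1.18 and 0.76 but changed sign on slide 3, as did Sox18. The other probes of Mast1 had changes of -0.10 and -0.03. A transcript the array file places at chr17:26911397-26917047 (mm9, plus strand) had 10 probes, which were all higher, by 0.36 to 0.65, with 1 of them a DEG. The transcript with the array name AK035112 had a log2 change of 1.16.

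Of the 12 downregulated DEGs, 8 have a symbol, and they include enzymes of hepatocyte metabolism. Aldh1a1, which oxidizes retinaldehyde to retinoic acid, was at 7.00, 7.02, 6.85, 6.76 and 6.196 in vehicle mice 3, 4, 1, 2 and 5 and at 6.13, 6.19, 6.42, 5.33 and 5.46 in medium-dose mice 13, 14, 12, 11 and 15. Every medium-dose liver lay below the vehicle livers of its slide, and the log2 change was -0.70 (SE 0.12, limma adjusted p = 0.0184). Csad, an enzyme of taurine synthesis, was at 1.99, 1.24, 1.47, 1.47 and 0.70 in the vehicle mice and at 0.51, -0.14, 0.61, 0.45 and 0.30 in the medium-dose mice. All medium-dose livers were below all vehicle livers, and the log2 change was -0.96 (SE 0.21, limma adjusted p = 0.0456), with the call held in 2 of 10 fits with 1 mouse left out. Ppp1r3c, which targets protein phosphatase 1 to glycogen, fell 1.62-fold (limma adjusted p = 0.0362), and Slc25a45, of the mitochondrial carrier family, fell 1.54-fold (adjusted p = 0.0441).

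Irf7 and Oasl1, genes of the interferon response, fell. Irf7 is the master factor of type I interferon induction and Oasl1 an interferon-stimulated gene that restrains it. Oasl1 was at -0.89, -0.28, -0.44, -0.46 and -0.41 in vehicle mice 3, 4, 1, 2 and 5 and at -1.61, -1.49, -1.81, -1.02 and -0.49 in medium-dose mice 13, 14, 12, 11 and 15, a log2 change of -0.87 (SE 0.14, limma adjusted p = 0.00770). On each slide all medium-dose livers were lower, mouse 15 only slightly. Irf7 was at 0.07, 0.80, 0.00, -0.24 and 0.04 in the vehicle mice and at -0.79, -0.70, -0.64, -0.21 and -0.17 in the medium-dose mice, a log2 change of -0.72 (SE 0.14, limma adjusted p = 0.0287). Of 18 interferon-stimulated genes on the array these were the only DEGs (0.0323% of all genes were downregulated), and 14 were lower (18318 of 37163 over all genes). The median difference of the list was -0.49 on slide 1, 0.19 on slide 2 and 0.02 on slide 3. Ifi44 and Ifit1 had log2 changes of -0.52 and -0.29 (limma adjusted p = 0.0913 and 0.298).

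Slc45a3 and Krtap20-2 rest on 1 of several probes. Slc45a3 fell by 0.69 on the log2 scale at its called probe (limma adjusted p = 0.0235), and its brightest probe had a change of -0.21 (adjusted p = 0.786). Krtap20-2, a hair keratin-associated protein gene by name, had 1 called probe of 4 (-0.63, limma adjusted p = 0.0201), and the other 3 had changes from -0.26 to 0.03. The other 4 downregulated transcripts have no symbol, and the one with the most negative change (-1.32) lies at chr1:63264155-63345773 (mm9, plus strand). Its called probe was well above background on 2 vehicle arrays and 1 medium-dose array, and its other 4 probes were not above background on any array.

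**Figure D2:**
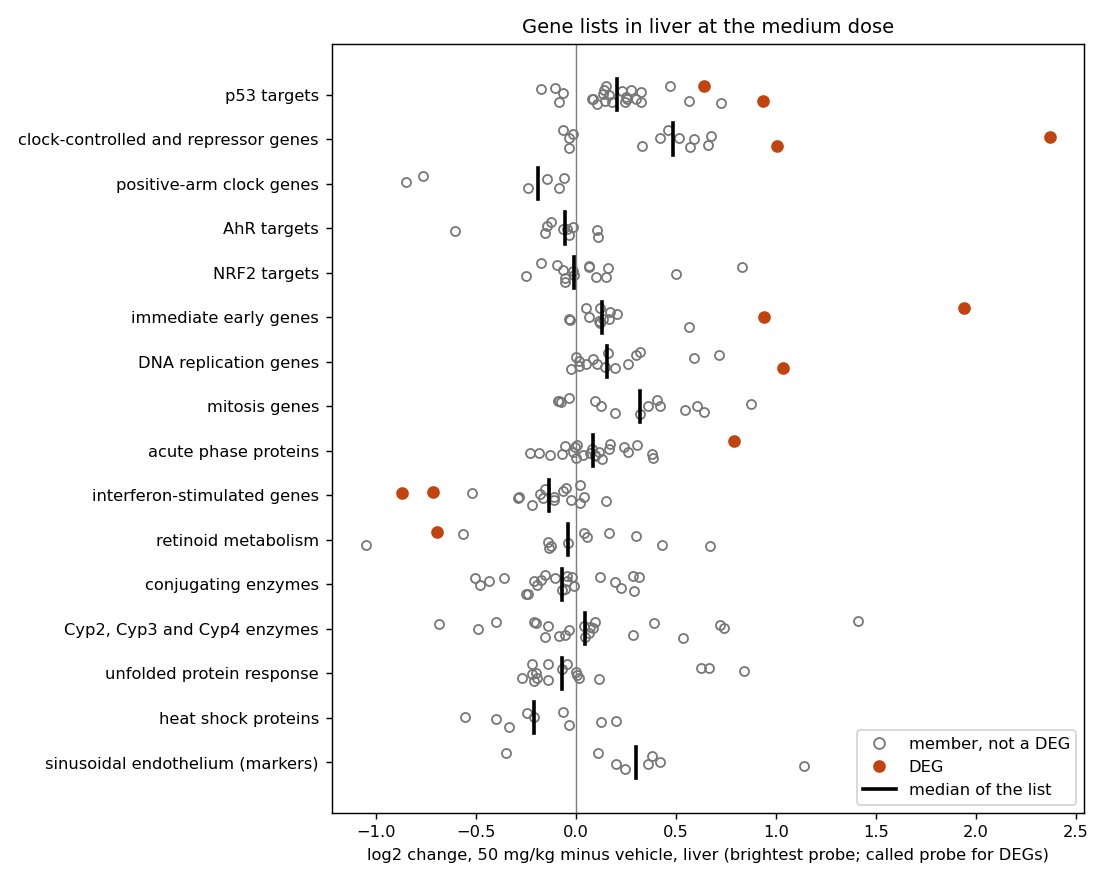
Log2 change in liver between 50 mg/kg-bw/day and vehicle (x axis) for each member of 15 pathway lists and 1 marker list (rows), with DEGs as filled points, other members as open points and the list median as a bar. Clock-controlled genes and p53 targets lie mostly above 0, with medians of 0.49 and 0.20, and AhR and NRF2 targets lie around 0.

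Most metabolic lists held no DEG. Among 22 Cyp2, Cyp3 and Cyp4 enzymes on the array, Cyp2b10, the classical target of the receptor CAR, had the largest change, 1.41 (SE 0.42), but an adjusted p of 0.189 by limma. It was at 2.01, 2.03, 3.20, 1.08 and 0.21 in vehicle mice 3, 4, 1, 2 and 5 and at 4.31, 3.58, 4.22, 0.26 and 0.32 in medium-dose mice 13, 14, 12, 11 and 15. The treated livers were higher on each slide, by little on slide 3. Cyp4b1 and Cyp3a25 had log2 changes of 0.28 and -0.40 (limma adjusted p = 0.295 and 0.503). Among 23 conjugating enzymes, Ugt2b34, a UDP-glucuronosyltransferase, passed the adjusted p but not the fold threshold (log2 change -0.44, SE 0.09, limma adjusted p = 0.0476), and Gsta3 and Gstm6 had log2 changes of -0.48 and -0.50 (adjusted p = 0.154 and 0.213). Ugt2b34 and Gsta3 lay below the vehicle livers of the same slide in all 5 medium-dose mice and Gstm6 in 3. Of the 23, 17 had a negative change, but the median difference was 0.07 on slide 1, 0.00 on slide 2 and -0.39 on slide 3, and the median change of -0.07 became 0.04 without slide 3.

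In the other metabolic lists single genes stood out without passing. Pdk4, which blocks entry of pyruvate into the citrate cycle, had a log2 change of -0.84 (limma adjusted p = 0.220) and Cd36, a fatty acid transporter, of 0.71 (adjusted p = 0.234) among 23 genes of fatty acid oxidation and PPAR-alpha. Baat, which conjugates bile acids to glycine and taurine, had one of -0.51 (limma adjusted p = 0.0764), and Nr0b2 one of -0.53 (adjusted p = 0.435) among 17 bile acid genes. Besides Aldh1a1, the 13 retinoid genes held Bco1 and Cyp26b1 with log2 changes of 0.43 and -1.05 (limma adjusted p = 0.295 and 0.407). Acacb, an acetyl-CoA carboxylase, had one of 0.55 and Srebf1 one of -0.31 (limma adjusted p = 0.195 and 0.435). The 24 sterol synthesis genes, 16 glucose genes and 15 genes of amino acid and urea metabolism held no DEG, with medians of -0.08, 0.00 and -0.14. Without slide 3 the median of the amino acid and urea genes was 0.03, that of the glucose genes 0.16 and that of the bile acid genes 0.00065, so the sign of the first and last turned.

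Stress and matrix lists also held no DEG. Xbp1, a transcription factor of the unfolded protein response, had a log2 change of 0.63 (limma adjusted p = 0.0703), with all 5 medium-dose livers above the vehicle livers of their slide. Trib3 and Chac1 had log2 changes of 0.84 and 0.67 (limma adjusted p = 0.230 and 0.341), whereas the median of these 17 genes was -0.07. Of 9 heat shock genes 7 were lower, Dnajb1 by -0.34 and Bag3 by -0.56 (limma adjusted p = 0.153 and 0.157), with a median difference of -0.74 on slide 2 and 0.20 on slide 3. Among 16 matrix genes Col3a1 and Sparc had log2 changes of 0.43 and 0.34 (limma adjusted p = 0.116 and 0.213), with all 5 treated livers above the vehicle livers of their slide in both. Of 10 MHC class II genes 9 were higher, none as a DEG, and Cd74 had a log2 change of 0.56 (limma adjusted p = 0.416).

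No gene separated the medium dose from either neighbouring dose. High minus medium dose gave 0 DEGs (0%, with 3041 probes at an unadjusted p under 0.05 by limma), and medium minus low dose gave 0 as well (0%, 3454 probes), which does not show that the doses act alike. Against vehicle, the low dose gave 0 DEGs (0%) and the high dose 128 (0.344%; 96 up, 0.258%, and 32 down, 0.0861%). These comparisons use the same 5 vehicle livers, so their values are set side by side and not counted as support. The doses were not spread alike over the slides. High-dose mice 16 and 17 were on slide 2 and 18, 19 and 20 on slide 3, with none on slide 1. Low-dose mice 8 and 9 were on slide 1, 7 on slide 2, and 6 and 10 on slide 3. High-dose values thus rest more on slide 3, where differences are compressed, and its part in comparisons of doses was not tested. All 56 DEGs had the same sign at the low and at the high dose, and 34 were DEGs of the high dose in the same direction, which is 60.7% of the medium-dose DEGs and 26.6% of the high-dose DEGs. For Dbp the log2 change was 2.09 at low, 2.37 at medium and 2.62 at high dose, and for Nab2 it was 0.58, 0.94 and 1.07. For Cdkn1a it was 0.69, 0.94 and 1.24, and for Aldh1a1 -0.39, -0.70 and -0.92, so these 4 stood in order of dose. Egr1 (1.49, 1.94 and 1.38) and Socs3 (0.41, 0.79 and 0.31) were highest at the medium dose, but neither differed from the high dose by the test (limma adjusted p = 0.935 and 0.845). The median change of the 44 upregulated DEGs was 0.50, 0.77 and 0.81 at the 3 doses, and that of the 12 downregulated DEGs -0.52, -0.71 and -0.54.

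**Figure D3:**
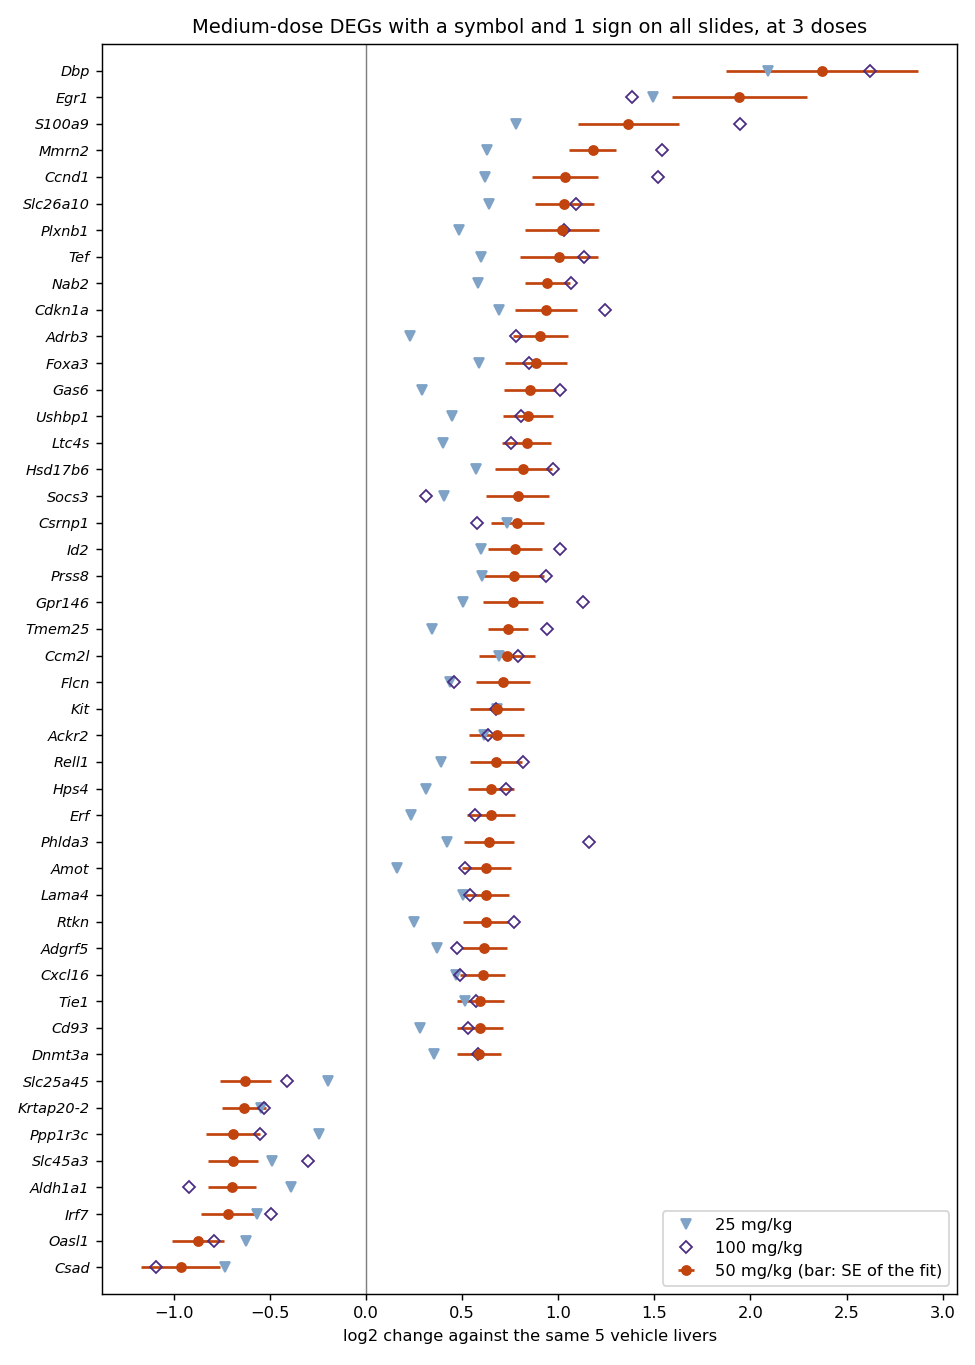
Log2 change against the same 5 vehicle livers (x axis) at low, medium and high dose (25, 50 or 100 mg/kg-bw/day) for the 46 medium-dose DEGs with a symbol and 1 sign on all slides (rows). Bars are the SE at 50 mg/kg-bw/day. All genes keep 1 sign at the 3 doses, and Dbp and Egr1 have the largest changes at 50 mg/kg-bw/day.

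The effect of the medium dose was also set beside that in the lungs of the same mice. The medium dose gave 308 DEGs in lung (0.829%), and 8 of the 56 liver DEGs were among them in the same direction, which is 14.3% of the liver DEGs and 2.60% of the lung DEGs. These were Dbp, Tef, Cdkn1a, Phlda3, Mmrn2, Ltc4s, Ccm2l and Ppp1r3c. For Dbp the log2 change was 2.37 in liver and 2.58 in lung, for Cdkn1a 0.94 and 1.48 and for Phlda3 0.64 and 1.19, and none of these pairs differed by the test (limma adjusted p = 0.958, 0.458 and 0.254 for the called probe).

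The effect differed between liver and lung for 149 genes (0.401%), 77 higher and 72 lower in liver than in lung. That split became 172 and 67 without the third liver slide, and 26 and 884 when arrays were centred on the median. Of the 56 liver DEGs, 21 were among the 149, 1 of which (Cdkn1a) is counted only through its second probe. The liver values that made the 56 calls also enter this difference, so the count of 21 is a description. Egr1 had a log2 change of 1.94 in liver and 0.02 in lung (limma adjusted p of the difference 0.0395), and Nab2 of 0.94 and 0.05 (adjusted p = 0.00388). Slc26a10 had 1.03 in liver and -0.43 in lung (limma adjusted p of the difference 0.000136). Csad (-0.96 and 0.15, adjusted p = 0.0330) and Slc25a45 (-0.63 and 0.42, adjusted p = 0.00300) were lower in liver by limma. Foxa3, Hsd17b6, Adrb3, Erf, Csrnp1, Tmem25, Dnmt3a and Lama4 also differed, each higher in liver. The second probe of Cdkn1a was well above background on 0 vehicle and 1 medium-dose liver array, so no size is given for its difference, and at the called probe the tissues did not pass the test.

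**Figure D4:**
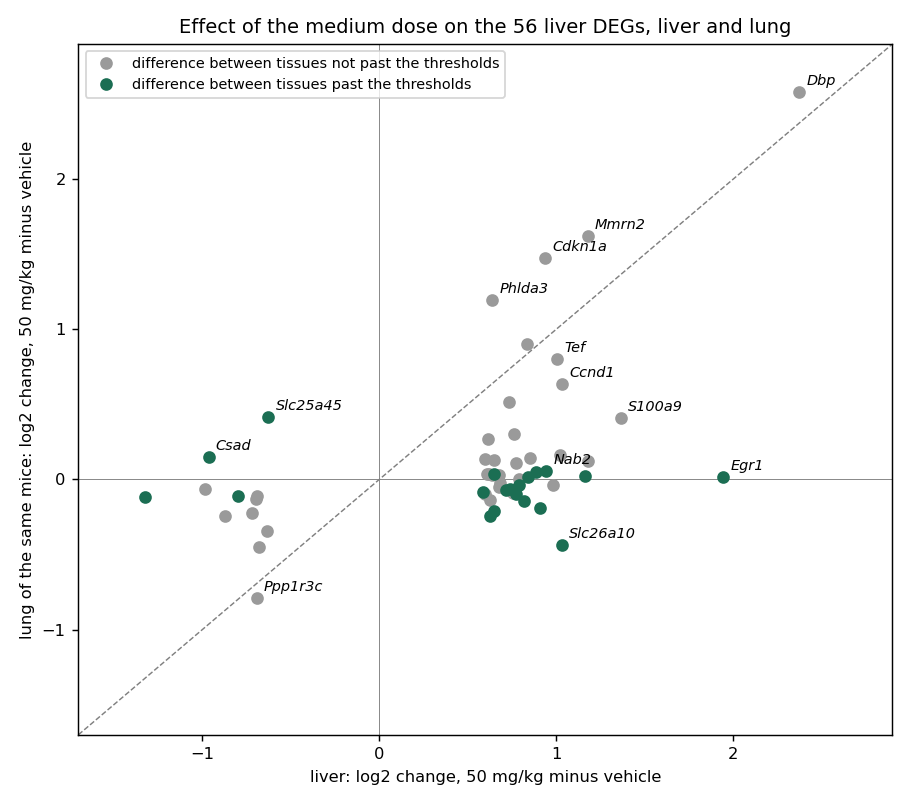
Log2 change between 50 mg/kg-bw/day and vehicle in liver (x axis) and in lung of the same mice (y axis) for the 56 liver DEGs, at the probe called in liver. Green points are the DEGs whose called probe differed between the tissues by the test, and the dashed line marks equal changes. Dbp, Mmrn2, Cdkn1a and Phlda3 lie near or above the line, and most other DEGs lie near 0 in lung.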

How the data were processed

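Liver RNA (Cy5) and reference RNA (Cy3) were hybridized by the authors to Agilent SurePrint G3 Mouse arrays, without dye swaps. The scanner files they deposited hold spot intensity and local background for Cy5 and Cy3, per the file headers from Feature Extraction 10.7.3.1, not yet normalized. The authors also deposited a table of normalized log2 ratios, used as an alternative. Its columns correlated with the values here at r = 0.967 to 0.998 on the liver arrays, with medians from -0.03 to -0.01. They run sample over reference, and the genes are not centred.

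Median intensities without background correction were normalized by loess in each array with limma 3.58.1 (R 4.3.3). Control and non-uniform spots were left out, which gave 55681 probes with 166 missing values over the 20 liver arrays; no spot was saturated on the 10 arrays. Through RefSeq accessions 26413 probes matched 20018 symbols, and 29268 kept the array's name. A gene was a DEG when any of its probes was, and lists use the brightest probe. The fit (lmFit, eBayes) held all 20 liver arrays, dose group and slide; p-values are 2-sided and Benjamini-Hochberg adjusted over all probes. The liver-lung fit held all 39 arrays of both tissues. The study's Fs statistic was not run, and limma stands in for it.

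Named genes are the 15 largest increases and all 8 decreases among DEGs with a symbol, well above background on at least 3 of 5 arrays of a group, of 1 sign on all slides, with the brightest probe moving the same way, plus list members that are DEGs and up to 4 of a list with the smallest p. Other DEGs are named to account for the members, apart from 1 that is not reported here, and genes described as not well above background were added after their values were seen. The members and lists were chosen with earlier results of these data known. Array number limits the precision: 5 mice a group, with 3 arrays of low signal. The fit was also run on simulated data, with the same spread and effect size on every slide. That run does not cover the compression on slide 3. Alternatives are given in the closing section.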

Additional observations from a re-analysis of the deposited data

Results flagged for a closer look

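In 11 of 232 tests of 1 gene in 1 group, after the fitted slide effects were removed, 1 mouse stood apart from the other 4 by more than Dixon's critical share of the range (0.710 for 5 mice). Chance gives about 1 in 20 for independent tests. The tests here share the same mice, so 11 of 232 cannot be judged against that share. The fitted slide effects also do not remove the compression on the dim slide, and its part in the 11 flagged cases was not tested. Vehicle mouse 5, the only vehicle liver on the dim slide, was the highest in 6 of them: Ushbp1 (gap of 0.838 of the range), S100a9 (0.827), Erf (0.810), Ccng1 (0.809), Adgrf1 (0.736) and Lama4 (0.731). Medium-dose mouse 15, on the same slide, was the lowest for Baat (0.896) and Ushbp1 (0.733) and the highest for Slc45a3 (0.726). Vehicle mouse 4 was the highest for the MHC class II genes H2-Eb1 (0.779) and Cd74 (0.769).

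Of 116 genes followed, 18 had a medium-dose effect that differed between liver and lung by limma's test of the difference at the called probe. The DEGs among the 116 were called on liver values that also enter this difference. The liver effect minus the lung effect on the log2 scale was 1.93 for Egr1, 1.47 for Slc26a10, 1.09 for Adrb3, 1.03 for Xbp1, 0.96 for Hsd17b6, 0.89 for Nab2, 0.87 for Lama4 and Prss8, 0.86 for Erf, 0.84 for Foxa3, 0.83 for Ushbp1 and Csrnp1, 0.80 for Tmem25, 0.78 for Flcn, 0.67 for Dnmt3a and 0.62 for Hps4, and it was -1.04 for Slc25a45 and -1.11 for Csad. Xbp1 was not a DEG in liver (log2 change 0.63, and -0.41 in lung).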

How the results depend on the processing

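The count of 56 DEGs was 0 without a slide term, 1 with the slide as a random block, 186 without the third liver slide, 146 with array weights and 6 (4 up, 2 down) with median centring. It was 112 at the adjusted p alone and 103 at an adjusted p of 0.1. With 1 mouse left out it ran from 9 to 187: 9 without mouse 12, 10 without mouse 3, 13 without mouse 13, 14 without mouse 1, 23 without mouse 4, 30 without mouse 2, 31 without mouse 14 and 187 without mouse 5. It stayed within 1.5 times without mouse 11 (53), without mouse 15 (78) and under the other 6 alternatives, with 41 to 56 of the 56 DEGs shared. Of the 56, 7 were called in all 10 fits with 1 mouse left out. High against medium dose and medium against low dose gave 6 and 5 DEGs without the third slide and 0 under all other alternatives. Genes whose effect differed between liver and lung numbered 149, 6 without a slide term, 24 with the slide as a random block, 239 without the third slide, 228 with array weights, 910 with median centring and 48 to 144 with 1 mouse (both tissues) left out, the lowest without mouse 12, with 76 without mouse 1 and 88 without mouse 13. Median centring moved the median of that difference over all genes from 0.01 to -0.10. Liver and lung are paired by mouse, and with the mouse as a block in that fit the count was 166, 114 of them shared. The mouse number pairs no vehicle with a medium-dose liver.

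All 56 DEGs kept their direction in every alternative that gave them a value (20 for the chr1 transcript, whose probe failed the stricter background filter, and 21 for the others), and 9 of 66 other genes followed did not. Without a slide term the change was 0.20 for Cyp2s1, -0.31 for Cyp4b1, -0.48 for Saa4, -0.32 for Steap4, -0.10 for Pros1, -0.11 for Stab1, -0.31 for Stab2 and -0.071 for Cdh5. Cyp1a2 was at 0.0079 without the third slide, 0.011 with only the groups compared, 0.0093 with median centring, and -0.12 to 0.013 with 1 mouse left out, the only positive value being that without vehicle mouse 2. Without a slide term the medians of the AhR targets (0.16), Cyp2, Cyp3 and Cyp4 enzymes (-0.39), acute phase genes (-0.34) and glucose genes (-0.31) changed sign, among others. Without the third slide those of the conjugating (0.04), amino acid and urea (0.03), bile acid (0.00065) and NRF2 target (0.0072) genes did. The causes were not tested, except that leaving out the slide term lets unequal slide membership (1 vehicle and 2 medium-dose arrays on the dim slide) enter the group means by construction.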

Other observations

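None of the 11 genes of the growth hormone and IGF axis was a DEG, and their median log2 change was 0.09. Cish and Socs2 varied widely between vehicle mice. Cish, a feedback target of STAT5, was at 2.94 in vehicle mouse 2 and at -0.80, -0.66 and -0.73 in vehicle mice 1, 3 and 4, against 3.39, 2.62 and 2.77 in medium-dose mice 12, 13 and 14, and its log2 change was 1.97 (SE 0.63, limma adjusted p = 0.235). Socs2, another STAT5 target, had a log2 change of 0.73 (limma adjusted p = 0.471), with vehicle mouse 4 at -0.68 and the other 3 vehicle mice of slides 1 and 2 between 0.91 and 1.80. Marco, a scavenger receptor of Kupffer cells, had a log2 change of 0.90 (limma adjusted p = 0.101), while the median of 8 Kupffer cell markers was 0.06.

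Medium-dose mouse 12 also had a high value of Cyp3a44, a female-predominant liver enzyme chosen after its values were seen. It was at 2.65 in mouse 12 and between -0.05 and 0.36 in the other 4 medium-dose livers, and in the vehicle livers between -0.02 and 0.71. It was well above background on 3 vehicle arrays and 1 medium-dose array.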
